A study of Homo sapiens with 2 samples.

Results

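Enzymes that write, erase and read marks on chromatin were compared between A549 cells stretched for 4 h and A549 cells kept static for 4 h. The genes were taken by a rule on their symbols, chosen with earlier results of these data known. The KDM, KMT, KAT, SETD, HDAC, SIRT, CHD, BRD, EZH, PRMT, TET, NSD, PHF and ING stems were matched to the gene names in the platform annotation. This gave 106 of the 14884 named genes, of which 103 are protein-coding and 3 are antisense or divergent transcripts that share a stem. The RefSeq table holds 122 protein-coding genes with such symbols, and 19 of them are unnamed here, the ING genes among them. Of the 106 genes, 101 had 1 probe set, and the other 5 are represented by their brightest probe set, averaged over both arrays. KDM5D, a Y-linked gene, is counted except in the numbers and medians of chromatin genes by signal level, and its values are not given.

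A549 is an established human lung adenocarcinoma line that grows as an epithelium. The series holds 1 expression array of stretched and 1 of static cells, so no difference below has a replicate check and no test across samples exists. How the stretch was applied, how strongly and how many cultures gave each RNA was not given in the sources used here. In its title the stretched sample carries A594 in place of A549, which its source name gives.

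Histone tails carry methyl and acetyl groups that loosen or close chromatin. Methyltransferases and acetyltransferases place these groups, demethylases and deacetylases take them off, and proteins with a PHD finger or a bromodomain bind them. CHD proteins use ATP to move nucleosomes, and TET enzymes oxidise methylated cytosine in DNA. Several of the enzymes also modify proteins outside chromatin, and a few genes that share these stems act elsewhere in the cell.

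Values are log2 signals as deposited, and each difference is stretch minus static on that scale. Signals over the 53617 probe sets ran up to 12.63 on the stretched and 12.7 on the static array, with medians of 2.47 and 2.57, and r between the arrays was 0.946, computed over probe sets rather than over replicates. The background was judged from 17 measured genes of tissues other than lung, of which 3 differed by 1.5-fold and 0 by 2-fold, and whose differences had a robust SD of 0.30. The 95th percentile of their signals, 4.13, is taken as the upper bound of background. Of 8 measured epithelial markers, KRT7 (7.56 under stretch, 5.41 static), KRT8, KRT18 and EPCAM lay above that bound on both arrays, while KRT19, SFTPB, SFTPC and NKX2-1 lay below it. The 2 measured fibroblast and 3 measured endothelial markers read at most 2.52 under stretch and 3.04 static. Of 3 measured leukocyte markers, CD68 (8.58 under stretch, 7.51 static) and CD14 (5.53 and 5.13) were above the bound and LYZ was not; their part in the results was not tested.

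Most of the chromatin genes read higher on the stretched array, and few of them by much. Of the 106 genes, 86 had a positive difference (81.1%, against 54.1% of all named genes), 19 a negative one and 1 no difference. Counts of positive differences by role, given below, stand against the same share of all named genes. At least 1.5-fold higher under stretch were 36 genes (34.0%), against a background of 20.7% of all named genes, and 3 were at least 1.5-fold lower, against 8.02%. At 2-fold, 13 genes were higher (background 9.08%) and 1 was lower (background 1.93%). The median difference was 0.36, with an interquartile range from 0.11 to 0.72, beside a median of 0.06 over all named genes. The remaining 67 genes stayed within 1.5-fold.

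Differences varied with the signal level, and the chromatin genes did not stand on the same side of other genes at every level. At mean signals from 3 to 4 the median difference was 0.49 over 17 chromatin genes, against 0.06 over all named genes, and from 4 to 5 it was 0.61 over 17, against 0.35. From 5 to 6 the chromatin genes were below, at 0.35 over 28 genes against 0.46. From 6 to 7 both medians were 0.45, and from 7 to 8 they were 0.27 over 8 chromatin genes and 0.28 over all. Among dim genes, from 2 to 3, they were -0.12 over 9 chromatin genes and -0.11 over all. Of the chromatin genes, 77 had a mean signal at or above the background bound, where all named genes lean upward as well. Of these 77, 27 were at least 1.5-fold higher (35.1%), against 36.8% of the 6254 named genes at or above the bound, with medians of 0.45 and 0.38. Of the same 77, 10 were at least 2-fold higher, against a background of 16.8%, and 2 were at least 1.5-fold lower, against 4.88%. PHF21A was the 1 gene among them at least 2-fold lower, against a background of 1.9%. At 1.5-fold, the share of chromatin genes higher under stretch was thus close to the share among all named genes of such signal. At 2-fold it was lower than that of all named genes there. Counting any positive difference, it was larger, at 88.3% of the 77 chromatin genes against 74.8% of the 6254 named genes. Signals on bulk RNA also cannot tell apart fewer cells that use a gene and less RNA per cell.

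**Figure D1:**
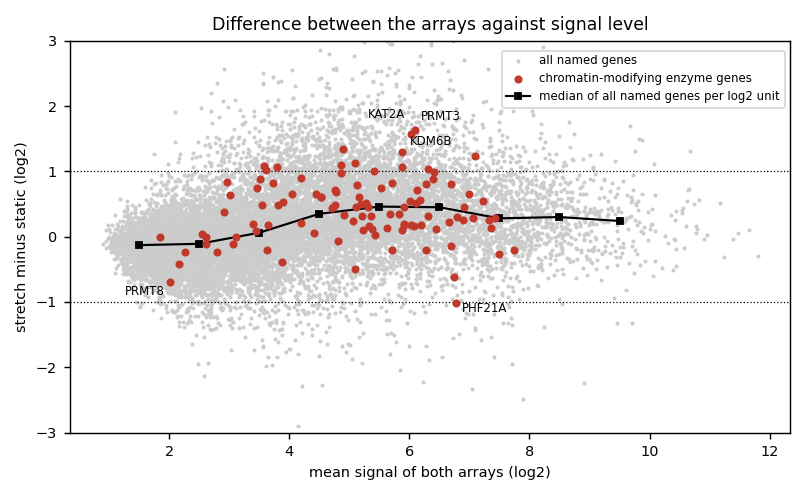
Difference between the stretched and the static array (log2, y axis) against the mean signal of both arrays (log2, x axis) for the chromatin genes (red) and all named genes (grey), with the median of all named genes per log2 unit (black squares) and dotted lines at 2-fold. The median of the chromatin genes lies above the black line at signals from 3 to 5 (0.49 against 0.06, then 0.61 against 0.35) and below it from 5 to 6 (0.35 against 0.46). Named genes beyond a difference of 3, 14 in number, are not drawn. KDM5D is not drawn in red and is left out of these medians of the chromatin genes.

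The scale between the arrays sets where 0 lies. Of 15 listed reference genes 6 were measured, with differences from -0.22 (B2M) to 1.72 (PPIA) and a median of 0.34. An offset taken from them thus rests on few genes that differ widely. Centring on these 6 genes lowers every difference by 0.34. It puts the median of all named genes at -0.28 and that of the chromatin genes at 0.02. A gene or group given below with a difference between 0 and 0.34 therefore has the opposite sign under that scaling. Genes at least 1.5-fold higher made up 92.3% of the chromatin genes past 1.5-fold as deposited, 76.9% after quantile normalization, 87.5% after a loess on level and 68.2% with reference genes. Over all named genes these shares were 72.0%, 53.8%, 60.2% and 30.8%. With only genes at or above the background bound, as deposited, the share was 93.1% for chromatin genes and 88.3% for all named genes. Of all named genes, 20.7% were at least 1.5-fold higher as deposited and 24.7% after median centring. The share was 12.8% after quantile normalization, 14.3% after loess and 10.6% with reference genes. Counts by role under these scalings, given below, stand against these shares. The median of the chromatin genes stood above that of all named genes by 0.30 as deposited, by 0.09 after loess and by 0.09 after quantile normalization. Centring on reference genes leaves the gap at 0.30 by construction. Among genes at or above the background bound, as deposited, the gap was 0.07.

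The 2 highest differences were those of PRMT3 and KAT2A, a cytosolic arginine methyltransferase that acts on a ribosomal protein and the GCN5 acetyltransferase of the SAGA and ATAC coactivators. PRMT3 read 6.92 on the stretched and 5.28 on the static array, a difference of 1.64 (3.12-fold). KAT2A read 6.81 on the stretched and 5.24 on the static array, a difference of 1.57 (2.97-fold). Both genes were above the background bound on both arrays. They were followed by PHF23, a PHD finger protein, at 5.56 under stretch and 4.22 static, a difference of 1.34. At the other end stood PHF21A, a subunit of the KDM1A (LSD1) corepressor complex that binds unmethylated histone tails, at 6.27 under stretch and 7.28 static. Its difference of -1.01 was the only 2-fold lower value among the chromatin genes. PHF3, which binds the tail of RNA polymerase II, read 6.44 under stretch and 7.06 static (-0.62).

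The promoter windows of these 5 genes are shown because the genes stand at the ends of the range among those with a window and a signal above background. Each runs from 250 bases before to 50 bases after the first start listed for the gene in the RefSeq table (GRCh38.p14), read 5′ to 3′ on the gene's strand. Capitals mark GC boxes (GGGCGG or CCGCCC) and E-boxes (CACGTG), which do not overlap here. The windows lie at chr11:20387466-20387765 (plus strand) for PRMT3, chr17:42121318-42121617 (minus) for KAT2A, chr17:7239408-7239707 (minus) for PHF23, chr11:46121405-46121704 (minus) for PHF21A and chr6:63635552-63635851 (plus) for PHF3.
PRMT3: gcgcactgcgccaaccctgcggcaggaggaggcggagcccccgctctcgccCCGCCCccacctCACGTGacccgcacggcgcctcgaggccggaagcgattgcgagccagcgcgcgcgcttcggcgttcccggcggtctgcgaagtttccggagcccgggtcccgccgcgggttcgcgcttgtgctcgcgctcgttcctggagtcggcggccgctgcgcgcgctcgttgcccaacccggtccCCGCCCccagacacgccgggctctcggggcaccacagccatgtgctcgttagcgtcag
KAT2A: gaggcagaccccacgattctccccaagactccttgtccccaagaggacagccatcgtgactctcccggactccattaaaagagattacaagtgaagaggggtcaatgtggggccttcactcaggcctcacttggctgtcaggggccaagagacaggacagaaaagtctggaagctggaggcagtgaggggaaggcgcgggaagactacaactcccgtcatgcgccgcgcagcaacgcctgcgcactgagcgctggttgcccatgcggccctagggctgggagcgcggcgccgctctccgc
PHF23: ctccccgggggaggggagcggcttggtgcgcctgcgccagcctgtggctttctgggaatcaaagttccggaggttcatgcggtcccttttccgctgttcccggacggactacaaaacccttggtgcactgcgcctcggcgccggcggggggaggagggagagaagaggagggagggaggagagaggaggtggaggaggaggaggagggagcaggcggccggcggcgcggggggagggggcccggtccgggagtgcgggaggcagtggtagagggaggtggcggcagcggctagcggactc
PHF21A: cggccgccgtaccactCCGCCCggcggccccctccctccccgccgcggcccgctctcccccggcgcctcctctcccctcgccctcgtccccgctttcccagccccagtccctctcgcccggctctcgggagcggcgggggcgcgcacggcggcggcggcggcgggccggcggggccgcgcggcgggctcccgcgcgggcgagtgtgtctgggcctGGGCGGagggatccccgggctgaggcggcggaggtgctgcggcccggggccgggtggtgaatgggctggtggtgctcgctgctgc
PHF3: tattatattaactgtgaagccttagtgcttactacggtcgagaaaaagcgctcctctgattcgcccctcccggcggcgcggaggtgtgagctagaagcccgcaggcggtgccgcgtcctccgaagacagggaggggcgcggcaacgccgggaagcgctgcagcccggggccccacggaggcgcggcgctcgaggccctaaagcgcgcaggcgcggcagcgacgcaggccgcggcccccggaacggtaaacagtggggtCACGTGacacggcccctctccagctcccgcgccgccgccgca

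The PRMT3 window held 2 GC boxes and 1 E-box, that of PHF21A 2 GC boxes and that of PHF3 1 E-box. Neither motif was in the windows of KAT2A and PHF23. Motifs were searched on both strands in the first listed window of 90 protein-coding chromatin genes and of 15843 protein-coding genes in all. GC boxes were in 67.8% of the chromatin gene windows, against 58.5% of all windows, and E-boxes in 14.4% against 8.88%. The ETS site CCGGAAG was in 15.6% against 14.2%. The AP-1 site TGANTCA was in 3.33% against 5.75%, the TEAD site GGAATG in 7.78% against 11.7% and the cAMP response element TGACGTCA in 1.11% against 2.59%. Median GC content was 66.8% for the chromatin genes and 62.7% for all, and GC content correlated with the difference at r = 0.06 over the 90 genes, a description across genes of 1 pair of arrays. These matches describe letters and not factor binding.

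Of 19 lysine demethylase (KDM) genes, 18 had a positive difference as deposited, 8 passed 1.5-fold upward and 4 of these passed 2-fold, 0 passed 1.5-fold downward, and the median was 0.49. The 8 are 42.1% of the role, against 20.7% of all named genes, and the 4 are 21.1%, against 9.08%. Downward at 1.5-fold, 8.02% of all named genes passed. With only the 11 KDM genes at or above the background bound, 4 passed, where the share over all genes is 36.8%. Quantile normalization and loess each left 5 of the 19 past 1.5-fold upward, and reference genes left 4 with a median of 0.15. KDM6B, which removes the repressive methyl mark of Polycomb, read 6.53 under stretch and 5.24 static, a difference of 1.29. Its X-linked paralog KDM6A stood at 0.31, with 5.52 under stretch and 5.21 static. KDM1A (LSD1), a flavin-dependent eraser of activating methyl marks, read 7.71 under stretch and 6.47 static, a difference of 1.24, and KDM1B followed at 0.79. These 4 genes were above the background bound on both arrays.

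KDM8 read 4.12 under stretch and 3.04 static (1.08), under the background bound on both arrays. KDM5C, an X-linked eraser of promoter methylation, read 4.13 under stretch and 3.11 static (1.02), with the static value within that range. The other measured KDM5 genes with values given, KDM5A (0.34) and KDM5B (0.28), had smaller differences. The KDM4 family differed among its members. KDM4A stood at 0.82, with 6.12 under stretch and 5.30 static, KDM4B, below the bound, at 0.49 and KDM4C at 0.21. KDM4D (0.83) and KDM4E, at 1.96 under stretch and 2.38 static (-0.42), stayed under the background bound throughout. KDM3B (0.45), KDM3A (0.20) and KDM2A (0.17) were above the bound on both arrays, and KDM7A (0.66) and KDM2B (0.53) had static values within the background range.

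**Figure D2:**
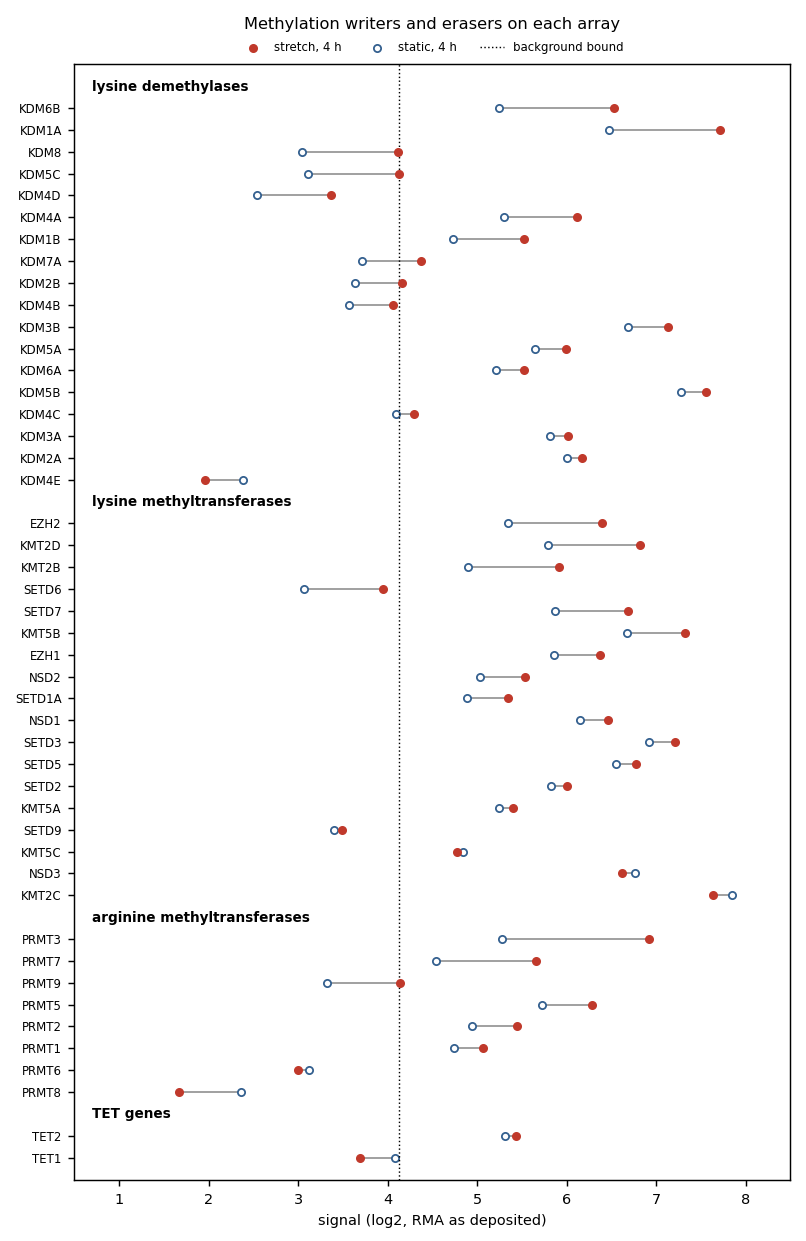
Signal (log2, x axis) of each methylation writer and eraser on the stretched array (filled red) and the static array (open blue), grouped by role and ordered by difference, with the background bound of 4.13 as a dotted line. Most red points lie to the right of the blue ones, up to a difference of 1.64 for PRMT3; KDM5D is not drawn.

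Among lysine methyltransferases, 15 of 18 genes had a positive difference, 6 passed 1.5-fold upward and 3 of these passed 2-fold, while 0 passed 1.5-fold downward. Their median was 0.38. The 6 are 33.3% of the role, against 20.7% of all named genes, and the 3 are 16.7%, against 9.08%. Downward at 1.5-fold, 8.02% of all named genes passed. At or above the background bound 5 of 16 passed 1.5-fold upward, where the share over all genes is 36.8%. The median came close to 0 under other scalings, at 0.025 after quantile normalization, 0.09 after loess and 0.04 with reference genes, which left 3 genes past 1.5-fold upward. EZH2, the catalytic subunit of Polycomb repressive complex PRC2, read 6.40 under stretch and 5.34 static (1.06), and its paralog EZH1 stood at 0.51. KMT2D, which marks enhancers, read 6.82 under stretch and 5.79 static (1.03). KMT2B, which acts at promoters, read 5.91 under stretch and 4.90 static (1.01). In contrast KMT2C, the close relative of KMT2D, stood at -0.21, with 7.64 under stretch and 7.85 static. All 5 of these genes were above the background bound on both arrays.

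SETD6, which can methylate the NF-κB subunit RELA, read 3.95 under stretch and 3.07 static (0.88), under the background bound on both arrays. SETD7 stood at 0.81 and KMT5B, which methylates histone H4, at 0.65, both above the bound on both arrays. Genes for methylation along transcribed genes differed less, with NSD2 at 0.51, NSD1 at 0.31, SETD2 at 0.18 and NSD3 at -0.14. SETD3, an actin histidine methyltransferase rather than a histone enzyme, stood at 0.29. The remaining 5 genes of this role ran from -0.07 (KMT5C) to 0.45 (SETD1A).

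Arginine methyltransferases were spread widely. Of 8 measured genes, 6 had a positive difference, 3 were at least 1.5-fold higher and 1 was at least 1.5-fold lower, with a median of 0.53. These are 37.5% higher and 12.5% lower, against 20.7% and 8.02% of all named genes. At or above the background bound 2 of the 5 were higher, where the share over all genes is 36.8%. The median was 0.11 after quantile normalization, 0.18 after loess and 0.19 with reference genes, and 5 genes were at least 1.5-fold higher after median centring. Besides PRMT3, PRMT7 read 5.66 under stretch and 4.54 static (1.12). PRMT9 read 4.14 under stretch and 3.32 static (0.82), the static value within the background range. PRMT8, a brain enzyme, read 1.67 under stretch and 2.36 static (-0.69), in that range on both arrays. PRMT1, the main enzyme of asymmetric dimethylation, stood at 0.33 and PRMT5, the main enzyme of symmetric dimethylation, at 0.55. PRMT2 stood at 0.50 and PRMT6, within the background range, at -0.12.

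Lysine acetyltransferases had the highest median of the roles as deposited, 0.72 over 7 genes, and all 7 had positive differences. At or above the background bound their median was 0.535 over 6 genes, under the 0.55 over 5 arginine methyltransferases. At least 1.5-fold higher were 4 of the 7 (57.1%), against 20.7% of all named genes, and 3 of the 6 at or above the background bound, against 36.8%. Quantile normalization, loess and reference genes each left 3 of the 7. Besides KAT2A, KAT14, a subunit of the ATAC complex, read 4.33 under stretch and 3.26 static (1.07), the static value within the background range. KAT5 (TIP60) read 5.35 under stretch and 4.37 static (0.98). KAT8 (MOF), which acetylates histone H4, read 5.13 under stretch and 4.41 static (0.72). KAT2B, the paralog of KAT2A known as PCAF, had a difference of 0.35 where KAT2A had 1.57. KAT7 (0.32) and KAT6B (0.18) completed the group. The median of this role stayed positive under every scaling run, with 0.35 after quantile normalization, 0.42 after loess and 0.38 with reference genes.

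Deacetylases were higher in 14 of 18 genes, with a median of 0.45, 6 at least 1.5-fold higher and 0 lower. The 6 are 33.3% of the role, against 20.7% of all named genes, and 8.02% of all named genes were at least 1.5-fold lower. At or above the background bound 5 of 12 passed upward, where the share over all genes is 36.8%. Only 2 were at least 1.5-fold higher after quantile normalization or loess and 1 with reference genes, with medians of 0.13, 0.17 and 0.11 in that order. HDAC5, a class II enzyme that shuttles between nucleus and cytoplasm, read 5.41 under stretch and 4.32 static (1.09). HDAC1, the class I enzyme of several corepressor complexes, read 7.10 under stretch and 6.30 static (0.80). The paralog HDAC2 had a smaller difference, at 5.18 under stretch and 4.94 static (0.24), whose second, dim probe set had the opposite sign (-0.40). HDAC3 stood at 0.56 and HDAC8 at -0.21. HDAC10 read 3.84 under stretch and 3.10 static (0.74), under the background bound on both arrays. HDAC9, at 2.15 under stretch and 2.39 static (-0.24), also lay within it. The tubulin deacetylase HDAC6 stood at 0.61, HDAC7 at 0.44, HDAC4 at 0.48 and HDAC11 at -0.21, the last 2 within the background range.

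Among the 7 sirtuins, NAD-dependent deacylases, the nuclear SIRT6 read 5.12 under stretch and 4.43 static (0.69). The nucleolar SIRT7 stood at 0.61, SIRT2 at 0.45 and SIRT1 at 0.30. The 3 mitochondrial sirtuins had small differences, with SIRT5 at 0.20, SIRT3 at 0.06 and SIRT4 at -0.01. SIRT4 and SIRT5 lay within the background range.

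BRD genes, whose bromodomains bind acetylated histones, had 4 positive differences out of 4 and a median of 0.43, which was 0.09 with reference genes. At least 1.5-fold higher was 1 of the 4, against 20.7% of all named genes, and 1 of the 3 at or above the background bound, against 36.8%. After quantile normalization 0 of the 4 were, and after median centring 2. BRD2, of the BET family, read 6.90 under stretch and 5.91 static (0.99), and BRD3 read 5.00 under stretch and 4.51 static (0.49). BRD8 (3.09 under stretch, 2.72 static) lay within the background range, and BRD7 stood at 0.18 (6.28 under stretch, 6.10 static). CHD remodellers had a median of 0.25, which became -0.05 after quantile normalization, -0.06 after loess and -0.09 with reference genes. Of 9 measured CHD genes, 2 were at least 1.5-fold higher (22.2%, against 20.7% of all named genes) and 0 lower (against 8.02%). At or above the background bound 2 of 8 CHD genes passed upward, where the share over all genes is 36.8%. After quantile normalization or loess 1 CHD gene was at least 1.5-fold higher, and with reference genes 0 were. CHD7 read 4.65 under stretch and 3.75 static (0.90), the static value within the background range, and CHD2 read 6.83 under stretch and 5.95 static (0.88). CHD4, the motor of the NuRD corepressor, read 7.49 under stretch and 6.95 static (0.54), while its relative CHD3 stood at 0.13. CHD1 (0.26), CHD8 (0.25) and CHD6 (0.10) were above the bound on both arrays, and CHD5 read 2.61 on each. CHD9 read 7.35 under stretch and 7.62 static (-0.27).

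PHF genes held both the lowest difference above background and the third highest. Of 18 genes, 6 were at least 1.5-fold higher and 2, PHF21A and PHF3, at least 1.5-fold lower. These are 33.3% and 11.1% of the role, against 20.7% and 8.02% of all named genes, and at or above the background bound 5 of 15 were higher, where the share over all genes is 36.8%. Their median was 0.12 as deposited, 0.05 after loess, -0.01 after quantile normalization and -0.22 with reference genes. Quantile normalization and loess each left 2 PHF genes at least 1.5-fold higher, and reference genes left 1. PHF10, a subunit of the PBAF remodeller, read 5.90 under stretch and 5.15 static (0.75), and PHF14 read 6.49 under stretch and 5.77 static (0.72). PHF13 read 4.85 under stretch and 5.34 static (-0.49), and PHF6 read 6.18 under stretch and 6.39 static (-0.21). The 2 PHF genes that are themselves demethylases, PHF8 (0.65, its static signal under the bound) and PHF2 (0.10), had unequal differences. PHF5A, a splicing factor subunit despite its name, stood at 0.45. PHF20 stood at 0.46, PHF20L1 at 0.13 and PHF12 at 0.11, while PHF7 (0.63), PHF21B (0.04) and PHF24 (-0.12) lay under the background bound. PHF1 carries an unsettled value: the chosen probe set gave 0.60, and its 2 other probe sets of nearly the same brightness gave 0.02 and -0.02.

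Neither of the 2 TET genes passed 1.5-fold. TET1 read 3.69 under stretch and 4.08 static (-0.39), under the background bound on both arrays, and its second probe set gave -0.74. TET2 read 5.43 under stretch and 5.31 static (0.12), a difference that was -0.31 after quantile normalization, -0.23 after loess and -0.22 with reference genes. The 3 non-coding transcripts all lay within the background range. KDM4A-AS1 read 2.68 under stretch and 2.91 static (-0.23), while KDM4A had a difference of 0.82. KDM7A-DT read 3.11 under stretch and 3.12 static, and KMT2E-AS1 read 3.74 under stretch and 3.56 static.

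**Figure D3:**
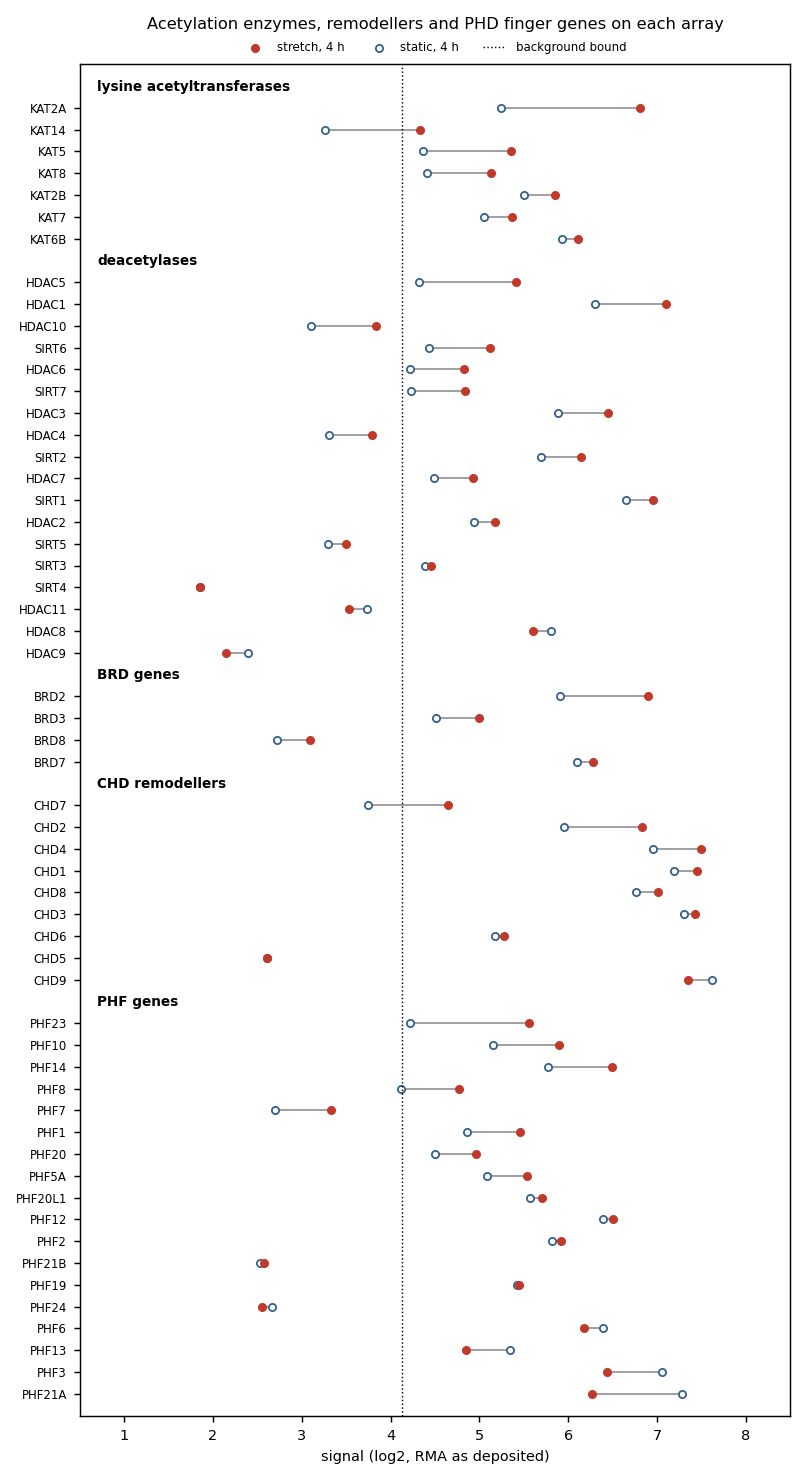
Signal (log2, x axis) of acetylation enzymes, bromodomain genes, remodellers and PHD finger genes on the stretched array (filled red) and the static array (open blue), grouped by role and ordered by difference, with the background bound of 4.13 as a dotted line. All 7 acetyltransferases lie higher under stretch, while PHF3 and PHF21A at the bottom lie lower, at -0.62 and -1.01.

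**Figure D4:**
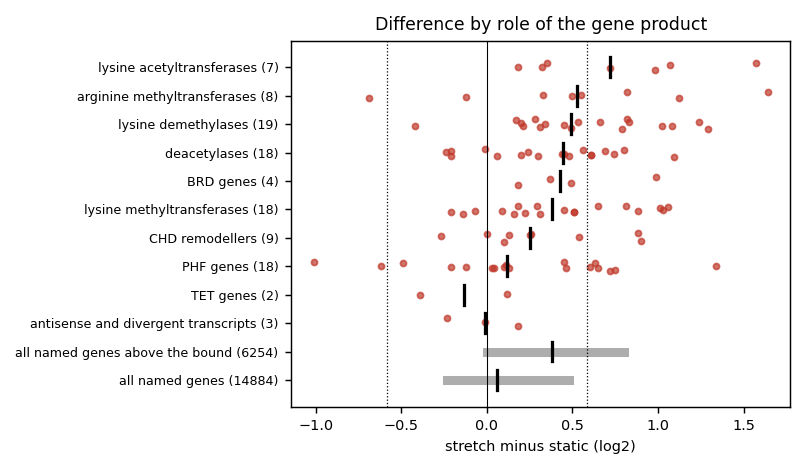
Difference between the arrays (stretch minus static, log2, x axis) of each gene by role, with the number of genes in brackets, black bars for medians, grey bars for the interquartile range of all named genes, and dotted lines at 1.5-fold. Medians run from 0.72 for acetyltransferases to -0.14 for the 2 TET genes, beside 0.06 for all named genes. All named genes above the background bound have a median of 0.38, while the medians by role include genes below it. KDM5D is not drawn but enters the median of its role.

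Subunits of the same complex had unequal differences on these arrays. The complexes below were grouped after the values were seen. In the LSD1 corepressor, KDM1A (1.24) and HDAC1 (0.80) were higher under stretch and PHF21A (-1.01) lower, with RCOR1 at 0.46 and RCOR3 at -0.46. In PRC2, EZH2 (1.06) was higher, while the core subunit SUZ12 stood at 0.08 and the accessory subunits MTF2, PHF19 and AEBP2 at 0.47, 0.03 and -0.18. The histone-binding subunits RBBP4 and RBBP7, which other complexes share, stood at 0.33 and -0.10, and the accessory subunit PHF1 at 0.60, with 0.02 and -0.02 from its other probe sets. Of the scaffolds of the KAT2A complexes, TADA2A was higher (1.09) and TADA2B, at 3.98 under stretch and 2.83 static (1.15), lay under the background bound on both arrays, with TADA3 at 0.43, SGF29 at 0.21 and the large cofactor TRRAP at 0.75. Of the COMPASS subunits that serve KMT2 or SETD1 enzymes, RBBP5 (1.38), PAXIP1 (1.13), CXXC1 (1.04, its static signal of 4.05 under the bound) and HCFC1 (0.98) were higher. WDR5 stood at 0.44, NCOA6 at 0.32 and MEN1 at -0.23, and DPY30, at 8.93 under stretch and 9.87 static, was lower (-0.94).

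A list of 132 other chromatin genes, which the symbol rule does not take, was measured for 91 genes. This list was also chosen with earlier results of these data known. Of these, 34 passed 1.5-fold upward (37.4%, against 20.7% of all named genes), 20 of them 2-fold (22.0%, against 9.08%), and 4 passed 1.5-fold downward (4.40%, against 8.02%), with a median of 0.43. Of the 81 at or above the background bound, 28 passed 1.5-fold upward (34.6%), against 36.8% of all named genes there, and 16 passed 2-fold (19.8%), against 16.8%. The highest were SUV39H1 (4.95 under stretch, 3.20 static, 1.75), which methylates heterochromatin, and DNMT3B (4.84 under stretch, 3.19 static, 1.65), a DNA methyltransferase, both from static values within the background range. SMYD5 (1.57) and SIN3B (5.03 under stretch, 3.53 static), a corepressor scaffold, came next. The lowest besides DPY30 were MSL1 (-0.75), CBX2 (-0.65), a Polycomb reader, and ATRX (-0.61), a heterochromatin remodeller. By group, the median was 0.71 over 8 COMPASS genes, 0.56 over 17 other writers, 0.45 over 17 subunits of acetyltransferase complexes and 0.15 over 18 Polycomb genes. It was 0.35 over 12 corepressor genes, 0.27 over 6 other erasers and 0.01 over 6 heterochromatin genes. Of 25 listed SWI/SNF, ISWI and related genes only 7 were measured, with a median of 0.74. They were EP400, SRCAP, ARID1B, INO80, PBRM1, ARID1A and BPTF, so no SMARC gene enters this median.

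Among the chromatin genes, those with a short span had larger positive differences than those with a long one, a relation looked at after the values were seen. Of 21 genes spanning under 20 kb, 12 were at least 1.5-fold higher (57.1%, against 20.3% of all named protein-coding genes of that span), with a median difference of 0.61. Of 51 genes between 20 and 100 kb, 19 were (37.3%, against 27.0%), with a median of 0.45. Of 31 genes of 100 kb or more, 5 were (16.1%, against 22.0%), with a median of 0.18. Among genes at or above the background bound the shares from short to long were 57.1%, 35% and 21.7% for chromatin genes, against 35.8%, 39.5% and 35.1% for all. PRMT3, with the highest difference, belongs to the long genes and goes against this order.

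Over the 103 protein-coding chromatin genes, the difference and the log10 gene span correlated with r = -0.27 (Spearman's rho -0.30), given as a description across genes that share 1 pair of arrays. Over 11916 named protein-coding genes r was 0.08, and the medians were 0.06, 0.19 and 0.09 from short to long. The correlation among the chromatin genes was -0.29 after loess and -0.33 over the 77 genes at or above the background bound. Short chromatin genes were also dimmer, with a median signal of 4.81, against 5.37 for the longest; the part of signal level in this relation was not tested beyond these values.

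**Figure D5:**
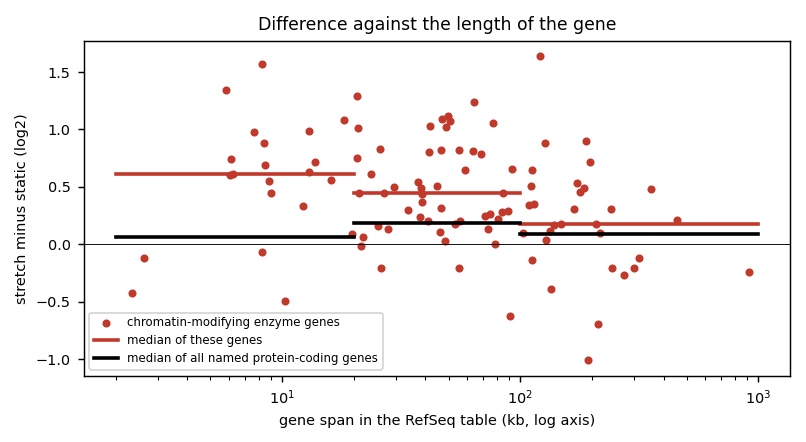
Difference between the arrays (stretch minus static, log2, y axis) against gene span in the RefSeq table (kb, log x axis) for protein-coding chromatin genes (red points), with medians of these genes (red lines) and of all named protein-coding genes (black lines) under 20 kb, from 20 to 100 kb and at 100 kb or more. The red medians step down over 0.61, 0.45 and 0.18, while the black ones stand at 0.06, 0.19 and 0.09; KDM5D is not drawn but enters its median.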

How the data were processed

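The log2 values deposited by the authors cover 53617 probe sets on 2 arrays and were made with RMA (background correction, normalization and summary of probes), per the submitters' processing notes. The sources used here name neither its software nor the chip file. The sorted values of both columns differ by up to 0.45, so the normalization between them is unknown. RMA values compress low signals and carry no detection calls.

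Probe sets were named through the platform annotation: 16098 had 1 symbol, 0 had several and 37519 are unnamed here. None of the symbols of the chromatin genes changed when updated by gene identifier. No level filter was applied, and a gene counted as higher or lower at 1.5-fold or 2-fold. With 1 array per condition no test was possible. The number of arrays limits the precision. Genes given with both values are the 10 highest, the 10 lowest and up to 4 per role by size, and others are said by difference or chosen after their values were seen. The genes and lists were chosen with earlier results of these data known. Background was judged by 17 of 40 listed genes of unrelated tissues. Alternatives were level filters, averaged probe sets and 4 other scalings, including loess (span 0.3). The calculations were tested on simulated data and used Python 3.11.15, numpy 2.4.6, pandas 2.3.3 and statsmodels 0.14.6.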

Additional observations from a re-analysis of the deposited data

How the results depend on the processing

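No paired analysis was possible because each condition has 1 array. Values were counted as changed when a median moved by more than 0.30, the robust SD of the unrelated-tissue genes, or a count by more than 1.5 times. For the 106 chromatin genes, quantile normalization gave 20 genes at least 1.5-fold higher (18.9%, against 12.8% of all named genes). It gave 6 lower (5.66%, against 10.9%) and 2 at least 2-fold higher. Loess gave 21 at least 1.5-fold higher (19.8%, against 14.3%) and 4 at least 2-fold higher. Centring on reference genes gave a median of 0.02, with 15 at least 1.5-fold higher (14.2%, against 10.6%) and 7 lower (6.60%, against 23.8%). At 2-fold, 3 were higher and 2 lower. Shares over all named genes at 2-fold are not given for these scalings. Counts at 2-fold in this paragraph are therefore not set against a background. Median centring left 0 at least 2-fold lower. For the 91 other chromatin genes, median centring left 2 at least 1.5-fold lower, against 5.42% of all named genes. Their other counts at 1.5-fold stand against the shares over all named genes under the same scaling. Quantile normalization gave a median of 0.045, with 22 higher and 10 lower at 1.5-fold and 8 higher and 2 lower at 2-fold. Loess gave a median of 0.098, with 8 lower at 1.5-fold (against 9.43% of all named genes) and 10 higher and 2 lower at 2-fold. Reference genes gave 0.09, with 22 higher and 9 lower at 1.5-fold and 8 higher and 2 lower at 2-fold. The medians of CHD genes (-0.05 after quantile normalization, -0.061 after loess, -0.09 with reference genes) and of PHF genes (-0.0075 after quantile normalization, -0.22 with reference genes) changed sign. Reference-gene centring subtracts 0.34 from all differences by construction; for the other scalings the cause was not tested. Of 25 genes given with both values and at least 1.5-fold higher, 18 remained so after quantile normalization, 19 after loess, 15 with reference genes and 25 with averaged probe sets. Averaging probe sets, the level filters, updated symbols, the mean in place of the median (0.40) and leaving out the non-coding transcripts changed none of the counts or the median of the 106 genes beyond these limits.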
